A study of Mus musculus with 4 samples.

Results

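Collagen processing and secretory pathway genes were taken as a group of 35 protein-coding genes, chosen by name for their role in building, carrying and crosslinking collagen, out of 21581 that GENCODE annotates on GRCm39 as protein-coding. They comprised 11 hydroxylases (P4ha1, P4ha2, P4ha3, P4hb, P3h1, P3h2, P3h3, P3h4, Plod1, Plod2 and Plod3), 2 glycosyltransferases (Colgalt1 and Colgalt2), 5 chaperones (Crtap, Ppib, Serpinh1, Fkbp10 and Fkbp14), 7 genes of COPII carriers (Sec23a, Sec23b, Sec24c, Sec24d, Sar1a, Sar1b and Mia3), the 2 regulators Creb3l1 and Creb3l2, 5 crosslinkers (Lox, Loxl1, Loxl2, Loxl3 and Loxl4) and 3 genes of propeptide processing (Bmp1, Pcolce and Pcolce2). Peak intervals reaching from 2 kb before to 500 bp after any start site of a gene were taken as promoter peaks. Intervals outside the promoter windows of all protein-coding genes and within 50 kb of a start site of a member were taken as distal, and they formed 134 distal regions of 43885 in the series. The members, and the pathway and marker lists used below, were chosen with earlier results of these data known.

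H3K27ac, an acetyl mark on histone H3 carried by active promoters and enhancers, was mapped by ChIP-seq in cells sorted from Col2a1-EGFP mouse fetuses of the G4 background at E14.5. The 4 samples, with 1 library each, were limb EGFP+, limb EGFP−, trunk EGFP+ and trunk EGFP− cells. All 4 groups carried the same homozygous allele, a sensor cassette with a minimal β-globin promoter and the EGFP coding sequence placed upstream of the Col2a1 start site, and all fetuses came by tetraploid aggregation from male embryonic stem cells of the edited line. Several fetuses were pooled over repeated sorts, and the EGFP− fractions were the remaining mixture of cell types of each tissue. With 1 library per group, no difference between groups has a replicate check, no test between conditions was made, and all intervals below cover counting error only. In such bulk samples, fewer cells carrying the mark and less mark per cell cannot be told apart. The names of the limb and trunk libraries gave a separate lane for each tissue, and a difference between tissues cannot be told apart from one between lanes.

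A fibrillar collagen is made in the endoplasmic reticulum, where prolyl and lysyl hydroxylases modify the chains and chaperones hold them until the triple helix forms. Procollagen is too large for an ordinary COPII vesicle and leaves the reticulum in carriers that need Mia3 (TANGO1) and the COPII coat. Outside the cell its propeptides are cut off and lysyl oxidases crosslink the fibrils. Cartilage cells secrete type II collagen in bulk, and the transcription factors Creb3l1 and Creb3l2, cleaved from the reticulum membrane, are known to raise the secretory capacity of bone and cartilage cells, Creb3l2 acting on Sec23a.

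The lists held 40899 intervals in limb EGFP+, 34360 in limb EGFP−, 36231 in trunk EGFP+ and 30716 in trunk EGFP− cells, covering 15.1 to 21.5 Mb. Reads at a summit, counted in 200 bp and recovered from the fold and p columns, had medians of 26 to 29 and a lowest value of 7 or 8. All 14 chondrocyte markers, Col2a1, Sox9 and Acan among them, had a promoter peak in both EGFP+ lists and 5 of 14 in each EGFP− list, with summed promoter reads of 1136 and 877 in limb and trunk EGFP+ and 116 and 125 in limb and trunk EGFP− cells. Of 8 connective tissue and osteoblast markers, 4 or 5 had a promoter peak in each list, Dcn and Dpt in the EGFP− lists alone and Runx2, Kera and Scx in EGFP+ lists alone. No promoter peak of the 4 epithelial or the 6 endothelial and blood markers was listed in any sample, and of 7 muscle markers only Myog had one, of 13 reads in limb EGFP+ cells. The chondrocyte label of the EGFP+ cells thus matched its markers, while promoter peaks of the muscle, epithelial, endothelial and blood markers were absent from the EGFP− lists as well. Distal regions within 50 kb of the muscle markers did have EGFP− peaks, 6 in limb and 7 in trunk, beside 12 and 4 in EGFP+ lists. Near the endothelial and blood markers 4 in limb and 1 in trunk had EGFP− peaks, beside 5 and 3 in EGFP+ lists.

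Of the distal regions with peaks in EGFP+ lists and in no EGFP− list, the 4 near a member with the highest −log10 p are given first. Each line holds 300 bases of GRCm39, plus strand, centred on the strongest summit, and capitals mark ACAAAG or ACAATG (SOX cores), GTAAACA (a forkhead core) or TGTGGT (a Runt core) on either strand.
Ppib side, 18.3 kb past the start, chr9:65985541-65985840 (plus strand): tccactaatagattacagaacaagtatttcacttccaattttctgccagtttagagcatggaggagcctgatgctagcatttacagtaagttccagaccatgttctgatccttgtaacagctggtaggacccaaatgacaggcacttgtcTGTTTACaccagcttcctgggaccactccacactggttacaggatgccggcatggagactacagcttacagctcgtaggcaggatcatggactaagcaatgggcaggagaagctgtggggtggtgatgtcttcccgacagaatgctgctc
Creb3l2 intron, 17.4 kb past the start, chr6:37401653-37401952 (plus strand): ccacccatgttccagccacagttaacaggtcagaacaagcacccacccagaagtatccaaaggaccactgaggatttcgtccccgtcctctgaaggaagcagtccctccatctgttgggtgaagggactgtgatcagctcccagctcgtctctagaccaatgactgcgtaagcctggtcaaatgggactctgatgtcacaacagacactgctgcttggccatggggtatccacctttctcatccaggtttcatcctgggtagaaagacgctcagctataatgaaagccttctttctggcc
Loxl3 side, 17.2 kb before the start, chr6:82993818-82994117 (plus strand): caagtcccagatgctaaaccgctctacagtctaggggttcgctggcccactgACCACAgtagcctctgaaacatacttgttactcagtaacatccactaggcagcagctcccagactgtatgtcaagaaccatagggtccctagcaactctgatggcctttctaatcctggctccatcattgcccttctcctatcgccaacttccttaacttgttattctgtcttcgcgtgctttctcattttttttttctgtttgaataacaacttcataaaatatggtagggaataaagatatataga
Loxl3 side, 34.4 kb before the start, chr6:82976585-82976884 (plus strand): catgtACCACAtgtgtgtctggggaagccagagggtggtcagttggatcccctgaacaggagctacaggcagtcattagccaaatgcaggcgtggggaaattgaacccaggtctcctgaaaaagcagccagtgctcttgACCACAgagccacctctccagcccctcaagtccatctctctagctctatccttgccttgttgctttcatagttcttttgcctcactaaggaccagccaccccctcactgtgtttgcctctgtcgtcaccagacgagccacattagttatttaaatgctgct
None of these 4 windows holds a SOX core. Across all 62 such regions near members, ACAAAG or ACAATG stood in 20 windows (32.3%), beside 33.4% of the 12041 regions of the same kind near any gene. TGTGGT stood in 13 of 62 (21.0%), beside 22.5%, and GTAAACA in 2 (3.23%), beside 4.12%. The members' EGFP+ regions were thus close to the same kind of region elsewhere in these letters.

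Promoter sequences are shown for P4ha2 and Loxl3, the members with higher promoter reads in EGFP+ cells of both tissues, and for P3h3 and Sec24d, the members whose promoter held the full CREB3L and stress element TGACGTG. Each line runs from 250 bases before to 50 bases after the canonical start on the strand of the gene, with ACGTG, the longer TGACGTG and also CCAAT on either strand in capitals. ACGTG lies within TGACGTG, so every match of the longer motif is counted in both.
P4ha2, chr11:53991500-53991799 (plus strand): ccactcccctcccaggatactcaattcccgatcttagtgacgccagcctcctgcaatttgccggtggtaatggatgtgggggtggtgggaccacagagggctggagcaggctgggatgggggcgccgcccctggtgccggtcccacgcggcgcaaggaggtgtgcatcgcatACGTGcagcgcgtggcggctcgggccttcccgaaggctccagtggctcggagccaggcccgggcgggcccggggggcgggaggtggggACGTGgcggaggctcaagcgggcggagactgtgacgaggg
Loxl3, chr6:83010902-83011201 (plus strand): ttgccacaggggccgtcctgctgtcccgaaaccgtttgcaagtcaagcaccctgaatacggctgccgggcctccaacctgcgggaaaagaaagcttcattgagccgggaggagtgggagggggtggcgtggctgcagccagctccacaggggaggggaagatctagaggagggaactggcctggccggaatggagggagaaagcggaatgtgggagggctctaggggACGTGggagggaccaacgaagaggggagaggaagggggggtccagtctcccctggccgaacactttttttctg
P3h3, chr6:124834674-124834973 (minus strand): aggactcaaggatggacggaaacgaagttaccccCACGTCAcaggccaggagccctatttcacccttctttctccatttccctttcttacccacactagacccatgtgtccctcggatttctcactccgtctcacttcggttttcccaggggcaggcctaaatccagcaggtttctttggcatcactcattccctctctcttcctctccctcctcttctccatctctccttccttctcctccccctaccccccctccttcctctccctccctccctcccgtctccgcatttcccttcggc
Sec24d, chr3:123060854-123061153 (plus strand): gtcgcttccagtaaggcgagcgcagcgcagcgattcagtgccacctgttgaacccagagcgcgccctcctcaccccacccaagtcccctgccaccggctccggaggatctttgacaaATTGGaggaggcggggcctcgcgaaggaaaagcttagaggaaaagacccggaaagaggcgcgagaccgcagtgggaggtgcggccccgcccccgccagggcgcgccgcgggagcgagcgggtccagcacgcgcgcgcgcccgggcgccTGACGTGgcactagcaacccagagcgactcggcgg
ACGTG, the core of the hypoxia response element, was found in 14 of 35 member promoters (40.0%), beside 20.7% of all 21581 promoters of that length. Its carriers were 6 of 11 hydroxylases (P4ha1, P4ha2, P4hb, P3h3, Plod2 and Plod3), Ppib, Sec24c, Sec24d, Sar1a, Creb3l1, Lox, Loxl3 and Pcolce2. TGACGTG was found in 2 of 35 (5.71%), beside 2.06%, CCAAT in 12 (34.3%), beside 39.8%, and the GC box GGGCGG in 23 (65.7%), beside 42.6%. The endoplasmic reticulum stress element (ERSE) was in no member promoter and in 0.125% of all promoters. Member promoters had a median of 57.7% G or C, beside 54.3% over all promoters. These are matches of letters and not sites of binding.

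Most member promoters carried H3K27ac in all 4 samples. A promoter peak was listed for 31 of 35 members in limb EGFP+ (54.4% of all genes), 31 in limb EGFP− (51.6%), 34 in trunk EGFP+ (52.6%) and 30 in trunk EGFP− cells (52.7%). In all 4 lists it was 28 of 35, or 80.0% (exact binomial 95% interval 63.1 to 91.6), beside 47.4% of all genes. Of the 40 other genes of the same pathways, 36 (90.0%) had one in all 4 lists. The 7 COPII carrier genes and the 5 chaperones had a peak in every list, as had 9 of 11 hydroxylases, 3 of 5 crosslinkers, 2 of 3 propeptide genes, Colgalt1 and Creb3l2. Peaks in the EGFP+ lists alone were seen for P4ha3 and Pcolce2, or 2 of 35 members (3.89% of all genes), and in the EGFP− lists alone for 0 of 35 (2.76%).

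**Figure D1:**
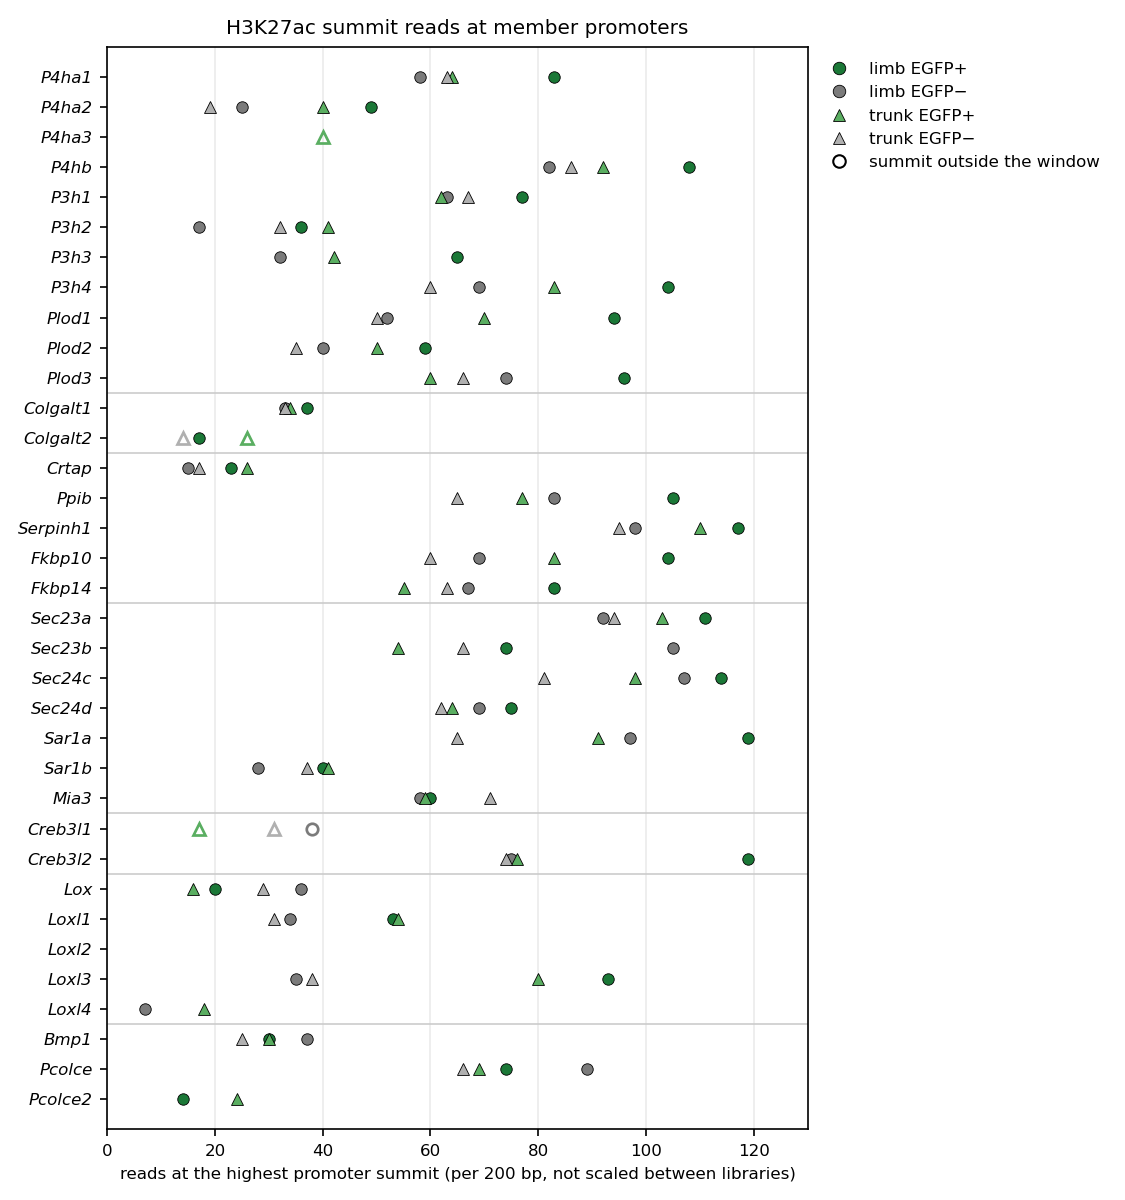
Reads at the highest H3K27ac summit in the promoter window (horizontal axis, reads per 200 bp) for each of the 35 members, in order of role. Circles are limb, triangles trunk, green EGFP+ and grey EGFP− cells, 1 library each, and open symbols are peaks that reach the window with their summit outside it. Loxl3 is at 93 and 80 reads in EGFP+ and 35 and 38 in EGFP− cells.

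To compare promoter reads between fractions, the EGFP+/EGFP− ratio of each tissue was divided by the median ratio over all genes with reads in both lists, 1.23 over 10404 genes in limb and 1.03 over 10299 genes in trunk. A centred ratio of 1.5 or more, or of 1/1.5 or less, was called. In limb, 4 of 29 members were called higher in EGFP+ cells (9.86% of all genes) and 3 lower (6.96%), with a median ratio of 1.06. In trunk, 3 of 28 were called higher (6.23%) and 1 lower (6.05%), with a median of 1.10. The split depended on the scaling, for the members and for all genes. Without centring, 10 members were called higher in limb (25.2% of all genes) and 1 lower (2.46%), and in trunk 4 were higher (7.83%) and 1 lower (5.18%). Scaled by the library-wide background, 13 were called higher in limb (35% of all genes) and 1 lower (1.5%), and in trunk 9 were higher (16.5%) and 1 lower (2.35%). P4ha2 and Loxl3 were called higher in both tissues (2.17% of all genes) and Lox lower in both (1.41%). With the highest summit of any interval that reached the window in place of the highest inside it, a reading added after seeing the data, 5 of 29 were called higher in limb (9.78% of all genes) and 2 lower (6.87%), and in trunk 5 of 30 were called higher (6.09%) and 2 lower (5.79%). The median promoter summit of the members had 75, 60.5, 60 and 62.5 reads in limb EGFP+, limb EGFP−, trunk EGFP+ and trunk EGFP− cells, beside 61, 48, 50 and 47 over all genes with one. Member promoters were thus above the genome in read number in each list, while their EGFP+/EGFP− ratio lay near it.

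**Figure D2:**
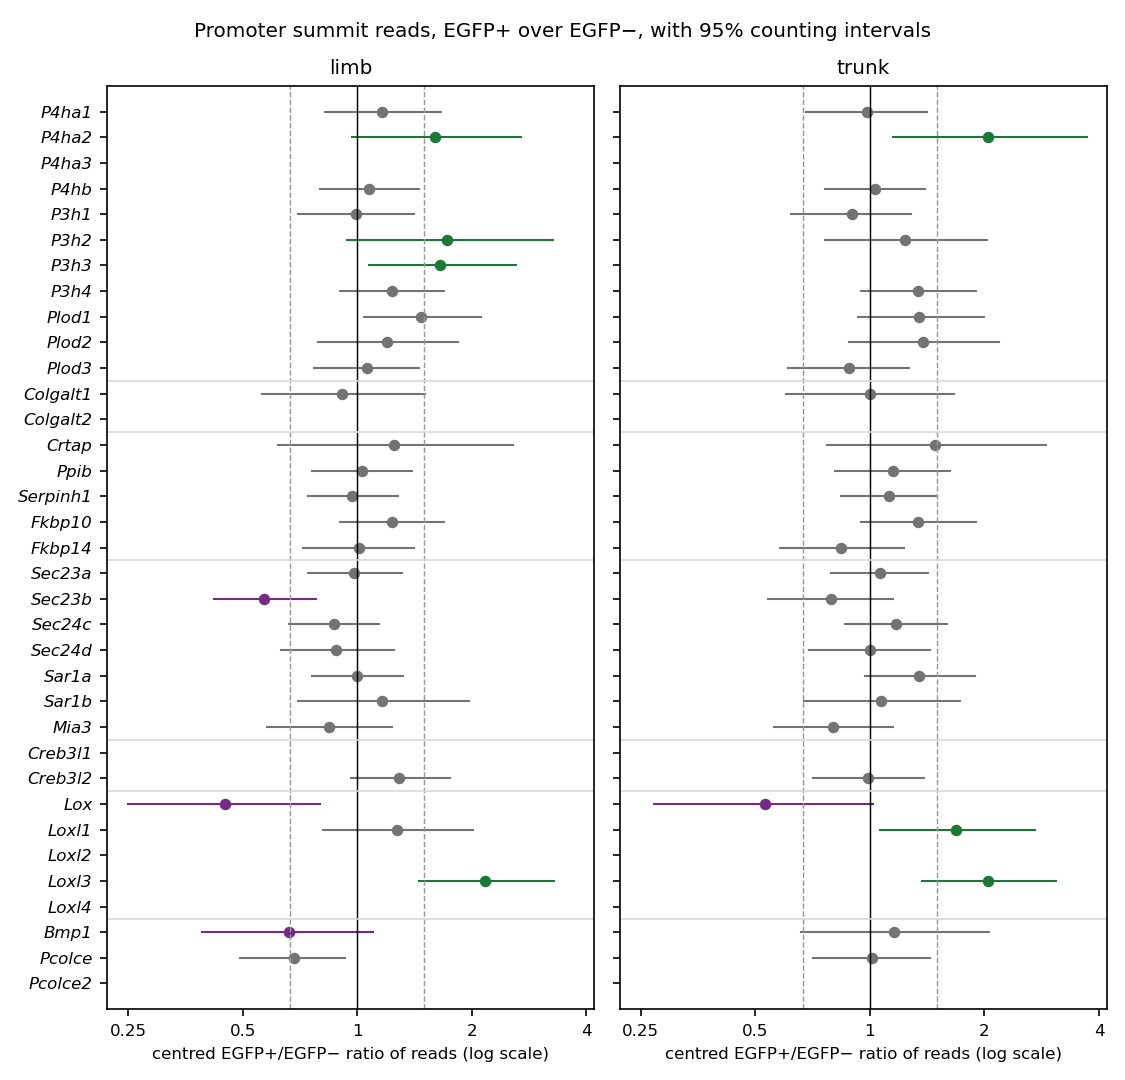
Centred EGFP+/EGFP− ratio of promoter summit reads in limb (left) and trunk (right), on a log scale, with exact 95% intervals for counting error. Dashed lines mark the call at 1.5 and 1/1.5, green and purple the members called higher and lower, and members without a summit in both lists have no point. The interval of Loxl3 lies above 1 in both panels, and that of Lox below 1 in limb.

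The promoter peaks were also broader in EGFP+ cells, as over the whole genome. Of 29 members with a peak in both limb lists, 26 (89.7%) covered more bases in EGFP+ cells (76.2% of all genes), and in trunk it was 21 of 30, or 70.0% (63.8%). The median ratio of covered bases was 1.31 in limb and 1.12 in trunk, beside 1.15 and 1.07 over all genes. All 10 hydroxylases with peaks in both limb lists were wider in EGFP+ cells, with a median ratio of 1.88, and P4ha2, at 1619 against 415 bases, was the farthest apart of them. The limb EGFP+ list was also the longest of the 4, and the part of list length in these widths was not tested.

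The prolyl 4-hydroxylases make the hydroxyprolines that keep the triple helix stable at body temperature, with P4ha1, P4ha2 or P4ha3 as the catalytic subunit and P4hb as the partner shared by all. P4hb had 108 promoter reads in limb EGFP+, 82 in limb EGFP−, 92 in trunk EGFP+ and 86 in trunk EGFP− cells, and P4ha1 had 83, 58, 64 and 63 in that order. The order limb EGFP+, limb EGFP−, trunk EGFP+ and trunk EGFP− is kept for all sets of 4 values below. These promoters were strong in every sample, and their centred ratios lay between 0.98 and 1.16.

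P4ha2 had 49, 25, 40 and 19 reads, so that both EGFP+ libraries lay above both EGFP− libraries. Its centred ratio was 1.60 (95% interval 0.97 to 2.70) in limb and 2.04 (1.15 to 3.72) in trunk, so the limb interval reached below 1. A pair of intronic regions of the neighbour Pdlim4, 40.6 and 40.0 kb before the P4ha2 start, had peaks in limb EGFP+ (76 and 66 reads), limb EGFP− (28 and 32 reads) and trunk EGFP+ (43 and 30 reads) and none in trunk EGFP− cells. P4ha3 had a promoter peak in trunk EGFP+ cells alone, with a summit of 40 reads outside the window. The strongest mark at P4ha3 lay instead 3.1 kb inside the gene, with 74, 74, 76 and 48 reads.

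P4ha3 had 4 EGFP+-only distal regions (7.80% of all genes had as many), counting as such a region with a peak in at least 1 EGFP+ list and no peak of either EGFP− list. The highest of them, in an intron 16.7 kb past the start (chr7:99951167-99951572), had 22 reads in limb and 25 in trunk EGFP+ cells. P4ha1 had 1 EGFP+-only region and 4 EGFP−-only regions. Its EGFP−-only region 1.0 kb past the start, of 74 reads in limb EGFP− cells, was the strongest of that class near any member, but the promoter intervals of the other lists covered the same bases, so it does not show mark absent from EGFP+ cells. The next one, 12.2 kb past the start in an intron, had 15 reads in limb and 18 in trunk EGFP− cells and no peak in either EGFP+ list.

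The prolyl 3-hydroxylase P3h1 forms a complex with Crtap and Ppib that modifies single prolines, and P3h2, P3h3 and P3h4 are its relatives. P3h2 had 36, 17, 41 and 32 promoter reads and a limb ratio of 1.72 (0.94 to 3.27), while its trunk ratio was 1.24. P3h3 had 65, 32 and 42 reads in limb EGFP+, limb EGFP− and trunk EGFP+ cells and a limb ratio of 1.65 (1.07 to 2.61). Trunk EGFP− cells had no peak in its promoter window, but a region 1.1 kb past the start, outside the window, had 97, 74, 92 and 63 reads. P3h1, with 77, 63, 62 and 67 reads, shared its promoter interval with AU022252, and P3h4, with 104, 69, 83 and 60 reads, shared its own with the chaperone gene Fkbp10, so the marks of such pairs cannot be told apart.

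The lysyl hydroxylases Plod1, Plod2 and Plod3 make the hydroxylysines that carry sugars and crosslinks, and Plod2 acts on the telopeptides. Plod1 had 94, 52, 70 and 50 reads, with ratios of 1.47 (1.04 to 2.11) in limb and 1.35 (0.93 to 1.99) in trunk, under the call in both, and it shared its interval with 2510039O18Rik. Plod3, with 96, 74, 60 and 66 reads, had ratios of 1.06 and 0.88, and it shared its interval with Znhit1. Plod2 was the hydroxylase gene whose surroundings were the most one-sided, since all 5 of its distal regions were EGFP+-only, a number that 4.39% of all genes reached. Of the 5, 1 was marked in both tissues, 3 in limb alone and 1 in trunk alone, and the weakest in limb had 12 and 14 reads.

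Inside the promoter window Plod2 had 59, 40, 50 and 35 reads and ratios of 1.20 and 1.38. Its strongest summits lay just past the window in the same intervals, with 95, 44, 89 and 52 reads. Read this way, in a comparison chosen after seeing the data, the ratio was 1.75 (1.21 to 2.56) in limb and 1.65 (1.16 to 2.37) in trunk, past the call in both (9.78% and 6.09% of all genes). Upstream of Plod2, 3 regions lay within 2 kb of one another, 30.1 to 29 kb before the start and in no gene. The strongest, at chr9:92395077-92395992, had 27 reads in limb and 29 in trunk EGFP+ cells.

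Colgalt1 and Colgalt2 add galactose to hydroxylysine. Colgalt1 had 37, 33, 34 and 33 reads and did not separate the fractions, with ratios of 0.91 and 1.00. Colgalt2 had no promoter peak in limb EGFP− cells, and the intervals reaching its window had 33 reads in limb EGFP+, 26 in trunk EGFP+ and 14 in trunk EGFP− cells. It had 5 EGFP+-only regions and no EGFP−-only region, and 2 of the 5 were marked in both tissues, which 5.43% of all genes reached. Of these the intronic region 7.7 kb past the start had 22 and 23 reads, and the one at 40.0 kb had 13 and 14 reads in limb and trunk EGFP+ cells.

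Among the chaperones, Serpinh1 encodes HSP47, which binds procollagen, and its promoter was among the most heavily marked of the members with 117, 98, 110 and 95 reads. Ppib, the prolyl isomerase cyclophilin B, had 105, 83, 77 and 65 reads, and Fkbp14, a further isomerase that shares its promoter interval with Plekha8, had 83, 67, 55 and 63. Crtap was the weakest with 23, 15, 26 and 17 reads. The ratios of the 5 chaperones ran from 0.97 to 1.25 in limb and from 0.84 to 1.48 in trunk, with none called.

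Around the chaperones, 11 of 19 distal regions were in the EGFP+-only class and 3 in the EGFP−-only class. That made 78.6% EGFP+ of those marked in a single fraction (49.2 to 95.3), an interval that holds the 59.2% near any gene. The strongest EGFP+-only region near any member, chr9:65984880-65985879, lay between genes 18.3 kb past the Ppib start, with 68 reads (−log10 p 36.4) in limb and 50 reads (−log10 p 18.4) in trunk EGFP+ cells. Its nearest gene was Snx22, at 7.8 kb, and all 4 EGFP+-only regions around Ppib were nearer to Snx22 than to Ppib. Serpinh1 also had 4 EGFP+-only regions (7.80% of all genes had as many), 3 of them in a cluster 11.7 to 10.5 kb before its start with 33 or 34 reads each, where the middle one (chr7:99013805-99014172) was marked in both tissues, with 34 and 33 reads. Crtap had 3 (13.5%), of which the first, 0.8 kb past the start, had 14 reads in limb and 22 in trunk EGFP+ cells.

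Of the 7 COPII carrier genes, 1 was called in limb and 0 in trunk. Sar1a, the GTPase that starts the coat, had 119, 97, 91 and 65 reads and ratios of 1.00 and 1.35, Sar1b had 40, 28, 41 and 37, and Mia3 had 60, 58, 59 and 71. Sec23a, the inner coat protein mutated in a craniofacial dysplasia, had 111, 92, 103 and 94 reads and ratios of 0.98 and 1.06. It shares its promoter interval with Gemin2, and Sar1b shares its own with Sec24a. The cargo adaptors Sec24c (114, 107, 98 and 81 reads) and Sec24d (75, 69, 64 and 62 reads) had ratios from 0.87 to 1.17. Sec23b was the gene called, with 74, 105, 54 and 66 reads and a limb ratio of 0.57 (0.42 to 0.78), called lower in EGFP+ cells, while its trunk ratio of 0.79 was not called. Without centring the limb ratio was 0.70, under no call. It shares its promoter interval with Rbbp9.

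Of 13 distal regions near the COPII genes, 4 were EGFP+-only (30.8%, beside 44.9% near any gene) and 5 were EGFP−-only (38.5%, beside 31.0%). Of the 9 marked in a single fraction 44.4% were EGFP+ (13.7 to 78.8), an interval that holds 59.2%. The 4 were 3 around Sec24c (13.5% of all genes had as many) and 1 near Sar1a, all inside other genes (Usp54, Myoz1 and Aifm2), and none was nearer to a COPII member than to another gene. Mia3 and Sec24d had 1 EGFP−-only region each and no EGFP+-only region, and Sec23b had no distal region. The region near Mia3, in an intron of Aida, had 18 reads in both EGFP− lists and was among the 5 EGFP−-only regions near members with the highest −log10 p.

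The 2 regulators of the secretory pathway differed from each other. Creb3l2 had 119, 75, 76 and 74 promoter reads and ratios of 1.29 (0.96 to 1.75) and 0.99 (0.71 to 1.39), so that limb EGFP+ cells stood highest and the other 3 libraries were alike. Creb3l1 had no promoter peak in limb EGFP+ cells, and the intervals that reached its window had summits of 38 reads in limb EGFP−, 17 in trunk EGFP+ and 31 in trunk EGFP− cells, all past the window. A limb EGFP+ interval of 15 reads began just beyond the window, 0.7 kb past the start. The ratio over these interval summits in trunk was 0.53 (0.27 to 0.98), a comparison chosen after seeing the data (5.79% of all genes were called lower in it).

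Creb3l2 had 17 distal regions, the most of any member, and 10 of them were EGFP+-only, which 0.426% of all genes reached. The 10 comprised 9 in its introns, from 17.4 to 50.0 kb past the start, and 1 at 21.6 kb before it. Of the 10, 7 had a peak in limb alone, 2 in both tissues and 1 in trunk alone. The strongest, chr6:37401596-37402078, had 78 reads (−log10 p 21.8) in limb and 42 reads (−log10 p 4.58) in trunk EGFP+ cells, and a neighbour at chr6:37401134-37401415 had 64 reads in limb EGFP+ cells. The other region of both tissues, 27.4 kb past the start at chr6:37391505-37392069, had 64 and 47 reads.

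These intronic regions of Creb3l2 had many reads for modest p values, such as 53 reads at a −log10 p of 5.63 at 26.4 kb, where an isolated region near Sar1a reached 5.98 with 10 reads. The peak caller takes the local read density as background, so a call inside a densely marked gene needs more reads. For the same reason a list without a peak there may still hold reads, and no read number can be given for it. Some of the regions lie close together: with intervals within 500 bp joined, the EGFP+-only regions of both regulators fell from 11 to 6. Its 2 EGFP−-only regions lay 0.7 and 12 kb past the start, the first under the EGFP+ promoter interval, and regions at 10.9 and 23 kb were marked in all 4 lists.

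Creb3l1 had 7 distal regions, of which 5 were mixed, having peaks in both fractions. A region 31.3 kb before its start had 56, 76, 56 and 59 reads and an intronic one at 15.8 kb had 65, 43, 55 and 56, so that its main distal marks were present in all 4 samples. Its only EGFP+-only region was the interval at 0.7 kb named above, which the promoter intervals of the other lists covered.

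**Figure D3:**
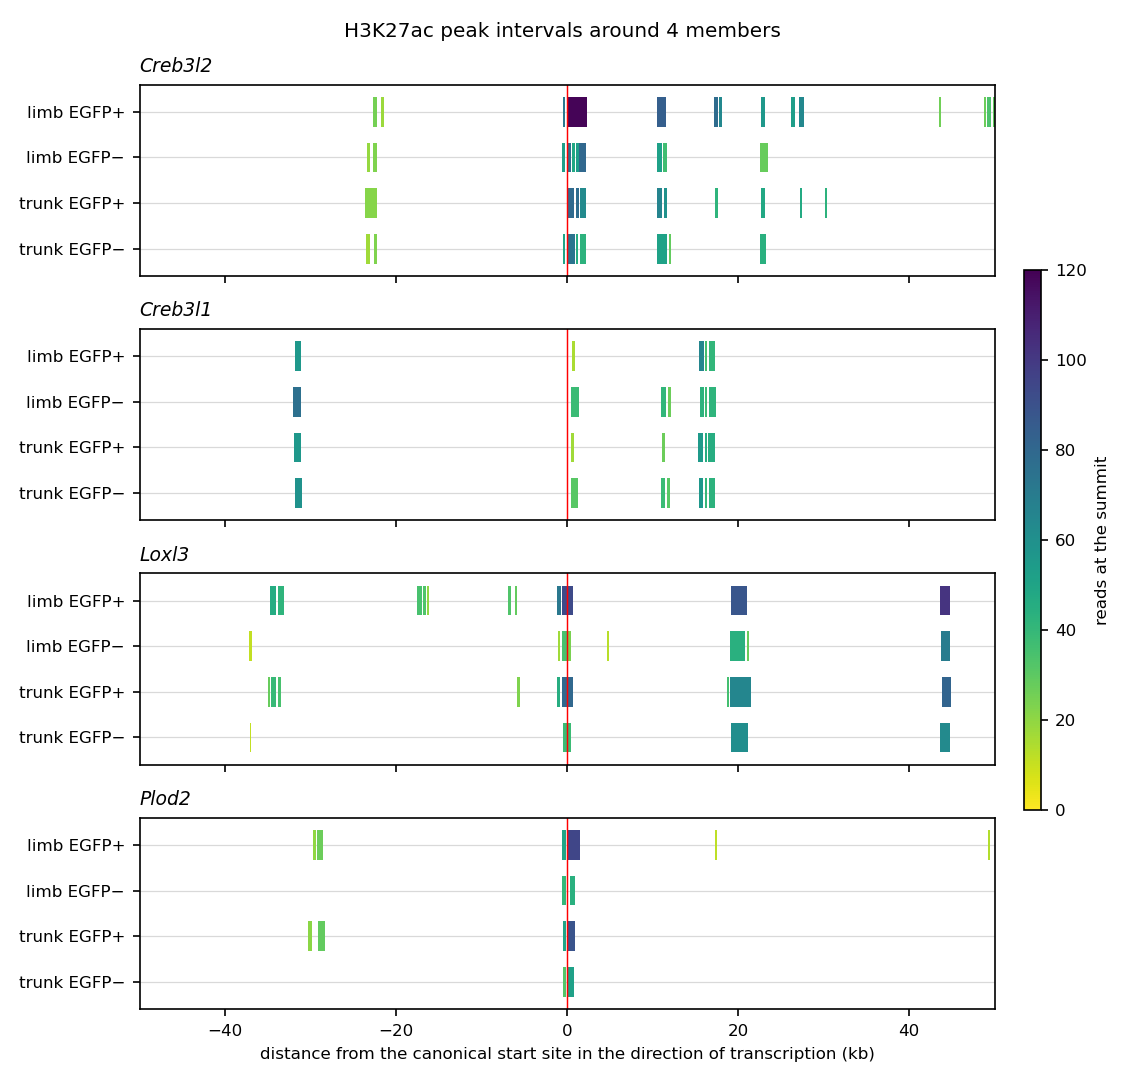
Peak intervals of the 4 lists within 50 kb of the canonical start site (red line) of Creb3l2, Creb3l1, Loxl3 and Plod2, plotted by distance in the direction of transcription and coloured by reads at the summit. Intervals in the EGFP+ rows without a partner in the EGFP− rows are seen across the introns of Creb3l2, before Loxl3 and before Plod2. Creb3l1 has the same main intervals in all 4 rows.

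The lysyl oxidases, which make the aldehydes from which crosslinks form, went in different directions. Lox had 20, 36, 16 and 29 promoter reads, with both EGFP+ libraries below both EGFP− libraries, and ratios of 0.45 (0.25 to 0.80) in limb and 0.53 (0.27 to 1.02) in trunk. It had no EGFP+-only region, and a region 34.5 kb before its start had 17 reads in limb and 13 in trunk EGFP− cells and no peak in EGFP+ cells. Loxl3 had 93, 35, 80 and 38 promoter reads, with both EGFP+ libraries above both EGFP− libraries, and ratios of 2.16 (1.45 to 3.29) in limb and 2.04 (1.37 to 3.08) in trunk. Its promoter interval is shared with Dok1, so the mark cannot be given to either gene alone.

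Around Loxl3, 8 of 10 distal regions were EGFP+-only, which 1.09% of all genes reached, and the other 2 were EGFP−-only. All 8 lay before the start within the neighbouring gene M1ap and were nearer to a start of M1ap than to Loxl3. They formed 3 clusters. The farthest, from 34.4 to 33.7 kb before the start, was marked in both tissues, with 46 reads in limb and 39 in trunk EGFP+ cells at chr6:82976142-82977125 and 42 and 35 reads at chr6:82977320-82978040. The middle cluster, from 17.2 to 16.2 kb, was marked in limb EGFP+ cells alone, with 35, 33 and 20 reads. The nearest, from 6.7 to 5.6 kb, had 33 and 29 reads in limb and 23 in trunk EGFP+ cells, in separate intervals.

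Loxl1 had 53, 34, 54 and 31 promoter reads, with a ratio of 1.27 (0.81 to 2.01) in limb and 1.68 (1.06 to 2.71) in trunk. The trunk call turned to 0.86 when reads were summed over all summits in the window. Loxl1 had 4 EGFP+-only regions (7.80%), of which the first, 2.1 kb before the start, lay under promoter intervals of the other lists, and the region of both tissues, at 29.9 kb, had 12 and 15 reads. Loxl4 had promoter peaks in limb EGFP− cells (7 reads) and trunk EGFP+ cells (18 reads) alone. Loxl2 had neither a promoter peak nor a distal region in any list, as 41.3% of all genes had no promoter peak.

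Of the genes of propeptide processing, Bmp1, the procollagen C-proteinase, had 30, 37, 30 and 25 reads, a limb ratio of 0.66 (0.39 to 1.10) called lower in EGFP+ cells and a trunk ratio of 1.16. Over interval summits its limb ratio was 0.83 and without centring 0.81, neither of them called. Pcolce, the enhancer of that proteinase, had 74, 89, 69 and 66 reads and ratios of 0.68 (0.49 to 0.93) and 1.01. Its relative Pcolce2 had promoter peaks in the EGFP+ lists alone, with 14 reads in limb and 24 in trunk, and an EGFP+-only region 0.8 kb past the start of 22 and 19 reads. Bmp1 had 3 EGFP−-only regions, led by an intronic one at 17.4 kb with 16 reads in limb EGFP− cells, and no EGFP+-only region.

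Over all members, 62 of the 134 distal regions were EGFP+-only (46.3%, beside 44.9% of the 26795 regions near any gene), 27 were EGFP−-only (31.0% near any gene) and 45 were mixed (24.1%). Of the 89 regions marked in a single fraction, 69.7% were EGFP+ (exact binomial 95% interval 59.0 to 79.0), beside 59.2% near any gene and 55.7% (44.7 to 66.3) of the 88 around the other pathway genes. Regions near each other share chromatin and are not independent, so this interval is too narrow. With promoter intervals of the other lists counted as well, a count added after seeing the data, 60 regions were EGFP+-only and 24 EGFP−-only, or 71.4% EGFP+, beside 60.5% near any gene. At a fold of at least 4 the shares were alike, 63.6% and 63.1%.

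**Figure D4:**
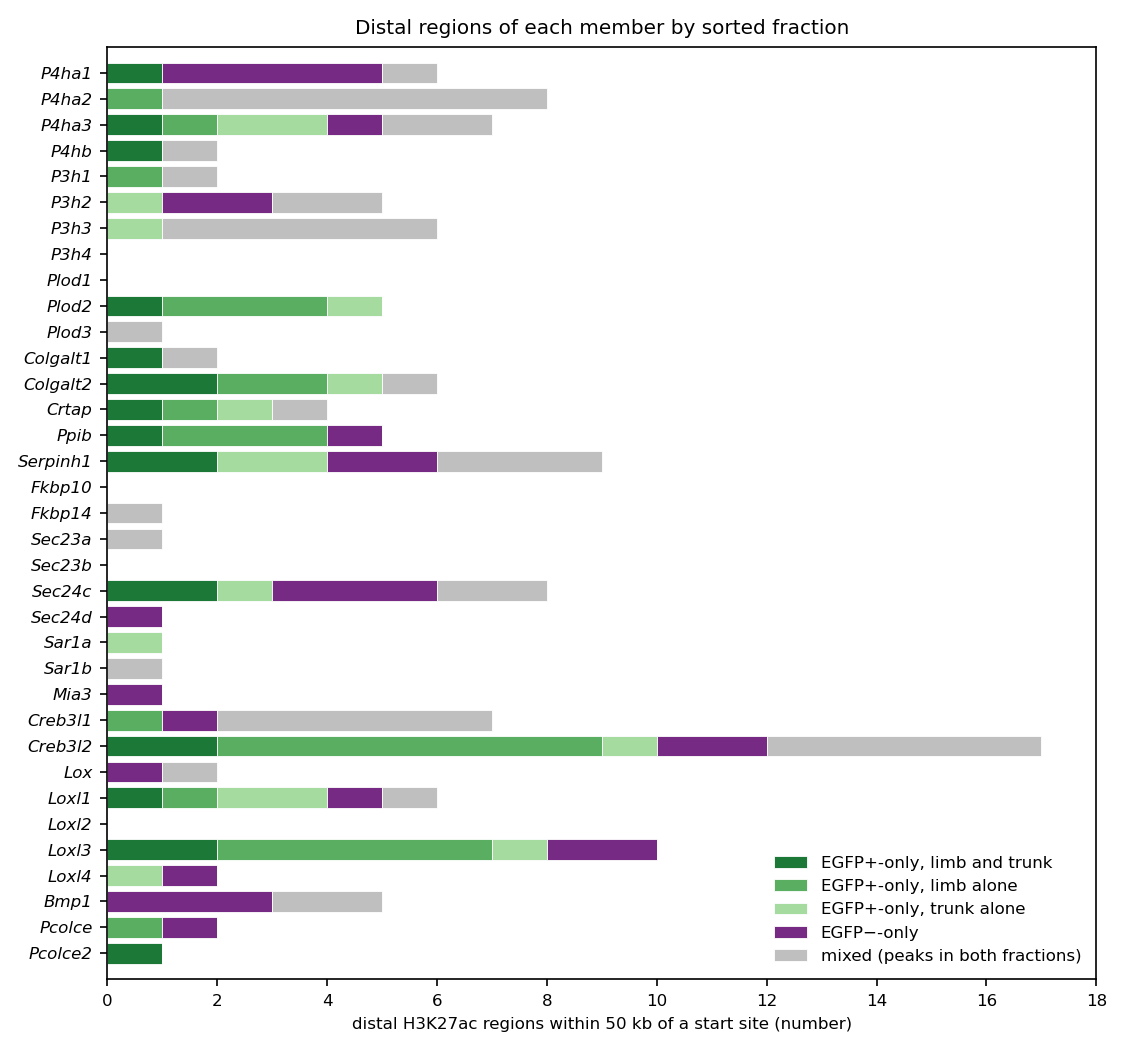
Number of distal H3K27ac regions within 50 kb of a start site of each member, split into EGFP+-only regions (greens, by tissue), EGFP−-only regions (purple) and mixed regions (grey). Creb3l2 with 10 and Loxl3 with 8 carry the most EGFP+-only regions, and 5 members have no distal region.

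By tissue, 19 of the 62 EGFP+-only regions (30.6%, beside 23.7% near any gene) were marked in limb and trunk, 27 in limb alone (45.0% near any gene) and 16 in trunk alone (31.4%). A region marked in both tissues was seen in both EGFP+ libraries, and 14 of 35 members (40.0%) had at least 1 of them, beside 16.0% of all genes and 8 of 40 other pathway genes. The members also had more distal regions of any class, with 85.7% having at least 1 and a mean of 3.83, beside 65.8% and 2.38 over all genes. At least 1 EGFP+-only region of any kind was near 22 members (44.6% of all genes) and at least 1 EGFP−-only region near 16 (40.0%). By role, the EGFP+-only regions numbered 15 for hydroxylases, 6 for glycosyltransferases, 11 for chaperones, 4 for COPII carriers, 11 for the Creb3l regulators, 13 for crosslinkers and 2 for propeptide processing. The EGFP−-only regions numbered 7, 0, 3, 5, 3, 5 and 4 in the same order. The roles differ in numbers of genes and regions, so these counts do not rank them. EGFP+-only regions were 35.7% of the 42 near hydroxylases, below the 44.9% near any gene. COPII carriers and propeptide processing also lay below it, and the other roles above, with 45.8% for the Creb3l regulators. Of regions marked in a single fraction, the EGFP+ share was 68.2% for hydroxylases (45.1 to 86.1). For every role the interval of this share held the 59.2% near any gene.

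Position bore on which gene a region was nearest to. Of the 134 regions, 89 were intronic, 9 exonic and 36 intergenic, and 61 lay within the body of a member gene. No region was within 50 kb of 2 members. A member was the nearest gene for 81 regions, 37 of them EGFP+-only and 16 EGFP−-only, or 69.8% EGFP+ of those marked in a single fraction. On that count Creb3l2 and Plod2 kept 10 and 5 EGFP+-only regions, while Loxl3, Ppib and Sec24c kept none.

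The other genes of these pathways were mostly marked alike in all samples. Of 14 genes of folding in the endoplasmic reticulum, 13 had a promoter peak in all 4 lists, P4htm having one in the limb lists alone. All 10 other COPII genes and all 8 regulators of the unfolded protein response had a peak in all 4 lists, Xbp1 with 107, 87, 95 and 91 reads and Atf4 with 96 to 153. In limb, 1 of 35 was called higher in EGFP+ cells (9.86% of all genes), namely Kdelr2, which returns reticulum proteins from the Golgi, at 2.31, and 2 were lower (6.96%), Mbtps1 and Sparc, both 0.66. In trunk, 1 of 33 was called higher (6.23%), the disulphide isomerase Txndc5 at 1.66, and 2 were lower (6.05%), Mia2 at 0.65 and Mbtps2 at 0.50. None was called in both tissues. Over interval summits Kdelr2 stood at 1.56, and the calls of Mbtps1 (0.91) and Mbtps2 (0.76) were lost.

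Among other processing genes, Adamts2 and Tll2 had no promoter peak in any list and Tll1 had one in limb EGFP+ and trunk EGFP− cells alone. The single-fraction regions were EGFP+ in 61.9% (38.4 to 81.9) of 21 around the folding genes, 81.2% (54.4 to 96.0) of 16 around the other COPII genes, 37.5% (15.2 to 64.6) of 16 around the unfolded protein response genes and 48.6% (31.4 to 66.0) of 35 around the other processing genes. All 4 intervals hold the 59.2% near any gene. The EGFP+-only regions of these 40 genes numbered 49 of 128 (38.3%, beside 44.9% near any gene). The most were around Adamts14 and Sec24b (6 each), Mrc2 (4, which 7.80% of all genes reached) and Calr, Furin and Canx (3 each, which 13.5% reached). Their EGFP−-only regions numbered 39 (30.5%, beside 31.0% near any gene), led by Adamts2, whose 8 distal regions were all EGFP−-only, and by Mrc2 with 5. The share of all genes with as many EGFP−-only regions is not given here.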

How the data were processed

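H3K27ac was measured by ChIP-seq in 4 samples with 1 library each, and the deposited files were a narrowPeak list per library, aligned to GRCm39. Per the study's methods and the submitters' processing notes, the authors sampled the same number of reads from every library, trimmed them with cutadapt 1.18, aligned them with Bowtie2 2.3.5.1, kept mapping qualities of at least 30 and called peaks with MACS2 2.2.7.1 on reads extended to 200 bp, with no control library named. The setting for duplicate reads is not given in the sources used here. The deposited columns were a score, the fold enrichment of each summit over the local background (a ratio), −log10 p-values and −log10 q-values, of which the lowest was 1.30, and the offset of the summit. Reads per library were not given. The peak names of the trunk EGFP− list carry another replicate number than its label, and the label was used.

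Rows of one start and end were joined into intervals. Whole reads at each summit were recovered from the deposited fold and p columns. Only whole numbers were searched, and for 100% of summits the best one gave a −log10 p within 0.1% of the deposited value. Library-wide backgrounds were 1.49, 1.63, 1.60 and 1.83 reads per 200 bp (limb EGFP+, limb EGFP−, trunk EGFP+, trunk EGFP−), and a summit of 7 or 8 reads was the smallest called, which limits what a missing peak shows. Start sites were the 67388 of protein-coding transcripts. Ratios and shares have exact 95% intervals (Poisson, conditional binomial or Clopper-Pearson). Distal intervals were merged over the 4 lists where they overlapped by 1 bp. The scripts (Python 3.11.15 with pandas 2.3.3, matplotlib 3.10.9, scipy 1.17.1 and numpy 2.4.6) were tested on simulated data. The simulated local backgrounds did not reach those of densely marked loci such as the introns of Creb3l2. Sequences were read from the GRCm39 genome. No test between groups was possible.

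The members, pathway lists and marker lists were chosen with earlier results of these data known. By the rule for named genes, full values were given for members lacking a promoter peak in any list, the 10 members with the most EGFP+-only regions, members with a called ratio, and the 10 EGFP+-only and 5 EGFP−-only regions of highest −log10 p. Plod2, Creb3l1 and other members were described further after their values were seen. Alternatives were a −log10 q of at least 5, a fold of at least 4, the 20000 strongest intervals of each list, other start sites, windows and overlaps, other scalings of the ratio and a call at 2.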

Additional observations from a re-analysis of the deposited data

Results flagged for a closer look

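In 3 cases limb and trunk libraries of the members went opposite ways, and none of these differences was tested. The promoter of Loxl4 had a peak in 2 lists, limb EGFP− (7 reads) and trunk EGFP+ (18 reads), so the fraction with a listed peak differed between tissues. The limb EGFP− peak was near the limit of calling, with a −log10 q of 1.39, and a missing peak does not show absent mark. A peak in limb EGFP+ and trunk EGFP− alone was seen at 3 distal regions (2.24% of those near members, beside 1.00% near any gene), 0.9 kb past the start of P3h2, 33.5 kb before P4ha2 and 2.6 kb past Serpinh1, and at the last a trunk EGFP+ promoter interval covered the same bases. A peak in limb EGFP− and trunk EGFP+ alone was seen at 2 distal regions (1.49%, beside 1.25%), 10.2 kb past P3h3 and 32.8 kb before Plod3, and at the last promoter intervals of the other lists covered the same bases.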

How the results depend on the processing

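No paired analysis was possible because every group has 1 library. By library name and label the fractions of a tissue share a lane and replicate number 1, though the trunk EGFP− peak names carry another number. At most they form a single pair, with nothing left to estimate its error. The EGFP+ share of single-fraction regions stayed between 62.8% and 73.7%, while the share near any gene ran from 47.8% to 65.4% over the alternatives for which it was computed. The shares stood closest at a fold of at least 4 (63.6% for members, 63.1% near any gene) and within 100 kb (62.8% and 59.2%), and farthest apart with the 20000 strongest intervals of each list (63.0% and 47.8%). Removing only own promoter windows has no share near any gene. The number of members with a promoter peak in all 4 lists stayed between 20 and 30 under every alternative run. The share of all genes, 47.4% in the main reading, is not given for these alternatives, so the range shows no difference from all genes. Of 199 alternative values of the main counts, 116 stayed within their limit, 83 moved and 0 changed direction. A count has no direction to change, so the last number says nothing of how stable the counts were. Why values moved was not tested. Of 165 values for single members, 106 stayed, 58 moved and 1 turned, the trunk ratio of Loxl1, at 0.86 with reads summed over summits.

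Counts below give distal regions, EGFP+-only and EGFP−-only regions, then EGFP+-only regions by tissue (both, limb, trunk) and by role. Some lists are partial, and a role or tissue left out does not mean a count of 0. At a −log10 q of at least 5 they were 64, 28 and 10, by tissue 12, 12 and 4, and by role 9 (hydroxylases), 2 (glycosyltransferases), 3 (chaperones), 1 (COPII), 6 (Creb3l), 6 (crosslinkers) and 1 (propeptides). At a fold of at least 4 they were 51, 21 and 12, by tissue 5, 13 and 3, and by role 1 (glycosyltransferases), 2 (chaperones), 1 (COPII), 4 (Creb3l), 2 (crosslinkers) and 1 (propeptides). Hydroxylases held the rest of those 21 regions. With the 20000 strongest intervals of each list they were 52, 17 and 10, by tissue 6, 5 and 6, and by role 6, 1, 2, 1, 2, 4 and 1 in the first order. Within 25 kb they were 80, 33 and 14, with 7 in both tissues and 14 in limb, and 6 for hydroxylases, 1 for COPII, 4 for Creb3l and 1 for propeptides. Within 100 kb they were 247, 113 and 67, by tissue 32, 50 and 31, with 36 for hydroxylases, 12 for glycosyltransferases and 17 for COPII. With regions nearest to a member alone they were 81, 37 and 16, with 11 in both tissues and 14 in limb, 6 for chaperones, 0 for COPII, 5 for crosslinkers and 1 for propeptides. Joining intervals within 500 bp left 14 EGFP+-only regions in limb and 10 in trunk, 6 for chaperones, 6 for Creb3l and 8 for crosslinkers. Removing only the member's own promoter window left 204 regions.

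Members called higher in limb EGFP+ cells numbered 10 with no centring (25.2% of all genes), 13 with scaling by the library-wide background (35%), 10 with reads summed over summits (16.9%) and 1 at a call of 2 (2.53%). Called lower in limb were 1 with no centring (2.46%), 1 with background scaling (1.5%) and 1 at a call of 2 (1.54%). In trunk, 9 were higher with background scaling (16.5%) and 5 with interval summits (6.09%), and 4 were lower with summed reads (12.8%), 2 with interval summits (5.79%) and 0 at a call of 2 (1.35%). The split of the calls thus depended on the scaling between libraries, and the cause was not tested. Peaks under 7 reads could not be seen at this depth.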

Other observations

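The same distal count over the marker lists gave 109 EGFP+-only of 137 regions around the 14 chondrocyte markers, with 87.2% EGFP+ (exact binomial 95% interval 80.0 to 92.5) of 125 single-fraction regions. Around the 8 connective tissue and osteoblast markers 22 of 54 regions were EGFP+-only, and 56.4% (39.6 to 72.2) of 39 single-fraction regions. The share of 69.7% around the collagen-processing genes lay between them, but inside the interval of the connective tissue and osteoblast markers. Near any gene 44.9% of regions were EGFP+-only and 31.0% EGFP−-only, and 59.2% of single-fraction regions were EGFP+. Around the 7 muscle markers, which had 1 promoter peak in all, 10 of 21 regions were EGFP+-only (47.6%) and 8 EGFP−-only (38.1%).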
